A study of Mus musculus with 6 samples.

Results

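Protein phosphatase 1 (PP1) is described here through 8 genes of the 55487 in the deposited table: the catalytic subunits Ppp1ca, Ppp1cb and Ppp1cc, the myosin-targeting subunits Ppp1r12a and Ppp1r12b, and the regulators Ppp1r2, Ppp1r7 and Ppp1r8. They were chosen by gene symbol, with the contrast between the genotypes already known, so each difference between the groups is a description of these libraries and supports nothing further. PP1 is one of the major serine/threonine phosphatases of animal cells. Its catalytic subunits are closely related, and a large set of regulatory subunits docks onto them to set where the enzyme acts and on what. In endothelial cells the form bound to a myosin-targeting subunit removes phosphate from myosin light chain and so opposes contraction, while other forms act at mitosis, in the nucleus and in the clock, where PP1 is known to act on PER proteins.

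RNA was sequenced from vascular endothelial cells (VECs) sorted from the retinas of P7.5 mouse pups as cells positive for both GFP and tdTomato. The 3 Bmal1;CKO libraries came from pups with 2 floxed alleles of the clock gene Bmal1 (Bmal1 FL/FL), a tdTomato reporter (tdTomato FL/+) and Pdgf-icreER, a tamoxifen-inducible Cre under an endothelial driver. The 3 control libraries came from tdTomato FL/+;Pdgf-icreER pups, which lack the floxed Bmal1 alleles. Both groups therefore carried the Cre and the reporter, and the labels give both tamoxifen from P0.5 to P2.5. The methods describe the libraries as biological replicates, 3 for each genotype, and neither they nor the labels say whether pups were pooled for a library. A library held 71145068 to 104017800 reads on genes. The deposited value is the read count divided by the size factor of its library and is called a normalized count. Libraries 1 to 3 are control and libraries 4 to 6 Bmal1;CKO, after the numbers of the table's columns. The targeted gene, listed as Arntl, stood at 2706 ± 915 normalized counts for control and 2314 ± 492 for Bmal1;CKO (SD, n = 3 each), with a log2 fold change of -0.19 (SE 0.36) that lay between -0.49 and 0.03 when 1 library was left out. One value per gene was given, and the floxed exon alone was not analysed here.

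The catalytic genes share much of their sequence, and 1 of them has a near-perfect copy elsewhere in the genome, which bears on how its reads could be counted. Ppp1cc (chr5:122158278-122175273, forward strand, GRCm38) has a retrocopy, Ppp1ccb (chr7:119739926-119742226, forward strand), which GENCODE M21 classes as a transcribed processed pseudogene. The coding sequence of Ppp1cc, 1011 bases long, is identical in Ppp1ccb, with 0 differing bases, whereas aligned coding sequence of Ppp1ca and Ppp1cb matches it at 79.8% and 77.1% of bases. The stretch around the first of its 7 coding exon junctions, coding bases 32 to 79 with the junction after base 55, is shown 5′ to 3′ from the GENCODE transcripts on GRCm38. Capitals mark bases that differ from Ppp1cc.
Ppp1cc: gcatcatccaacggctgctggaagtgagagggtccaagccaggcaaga
Ppp1ccb: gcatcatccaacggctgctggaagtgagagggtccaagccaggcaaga
Ppp1cb: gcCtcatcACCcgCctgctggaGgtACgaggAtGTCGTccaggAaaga
Ppp1ca: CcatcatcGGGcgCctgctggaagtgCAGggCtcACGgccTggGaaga
The retrocopy transcript holds the same spliced stretch. It is itself annotated with 2 exons, and whether this stretch is unbroken in the genome was not checked. If it is unbroken, a read spanning this junction matches the retrocopy without a gap. Such a read matches Ppp1cc only if it is split across the intron. Ppp1cb and Ppp1ca differ from Ppp1cc at 15 and 14 of these positions, so their reads can be told from those of Ppp1cc here.

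Ppp1cb (chr5:32458843-32517433, forward strand) encodes PP1 beta, the catalytic subunit found in myosin phosphatase. Control libraries 1 to 3 had 4084, 4700 and 4651 normalized counts of Ppp1cb, and Bmal1;CKO libraries 4 to 6 had 1955, 2260 and 2289. All 3 control libraries lay above all 3 Bmal1;CKO libraries, and within each group the values were close. The means were 4478 ± 343 and 2168 ± 185 (SD, n = 3 each), a ratio of 0.484. Its log2 fold change was -1.05 (SE 0.24, 95% interval -1.60 to -0.49). It stayed between -1.11 without control library 1 and -0.97 without Bmal1;CKO library 4. By limma-trend over 20459 genes (10 or more reads in 3 or more libraries), the adjusted p was 0.825, and Ppp1cb ranked 61 by p. DESeq2 on the recovered reads gave an adjusted p of 0.0228 without shrinkage and 0.0360 with a prior on the fold changes, whereas edgeR gave 1.00 and limma-voom 0.906, so whether Ppp1cb passes the threshold depended on the model.

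Ppp1ca (chr19:4192065-4195420, forward strand) encodes PP1 alpha and had by far the most reads of the members. Its normalized counts were 63171, 49803 and 61034 in control and 84805, 54643 and 53797 in Bmal1;CKO. Library 4 stood above the rest, and the other Bmal1;CKO libraries lay within the control range. Ppp1ca had a log2 fold change of 0.13 (SE 0.30, 95% interval -0.57 to 0.82), which was -0.090 without library 4. Exons of Ppp1ca share 225 bases with Rad9a on the opposite strand, which had 794 to 1685 normalized counts. The use of strand in the counting is not given in the sources used here.

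Ppp1cc encodes PP1 gamma. It had normalized counts of 214, 654 and 1133 in control and 720, 1233 and 854 in Bmal1;CKO. The groups overlapped, and control library 1 was the lowest. The log2 fold change of Ppp1cc was 0.75 (SE 0.64, 95% interval -0.75 to 2.25), but it was 0.08 without control library 1 and 1.28 without control library 3. The retrocopy Ppp1ccb was listed with far higher values, 11604, 28304 and 30931 in control and 20955, 24416 and 21449 in Bmal1;CKO. Between 95.2% and 98.2% of the summed normalized counts of the pair were on Ppp1ccb. With both rows summed, an alternative added after the data were seen, the means were 24280 ± 10904 and 23209 ± 2137 (SD, n = 3 each), and the log2 fold change was 0.06 (SE 0.40, 95% interval -0.86 to 0.98). The methods name Bowtie, an aligner that does not split reads across introns. Of all windows of 150 bases along the main Ppp1cc transcript 68.1% cross an exon junction, against 61.9% for Ppp1ca, 15.3% for Ppp1cb and 11.6% for Ppp1ccb. How far reads of Ppp1cc were placed on Ppp1ccb was not tested, so the level of Ppp1cc is uncertain. The other 4 copies with at least 90% identity to Ppp1cc, Gm5754, Gm14122, Gm9231 and Gm9315, reached at most 54.4 normalized counts in any library.

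**Figure D1:**
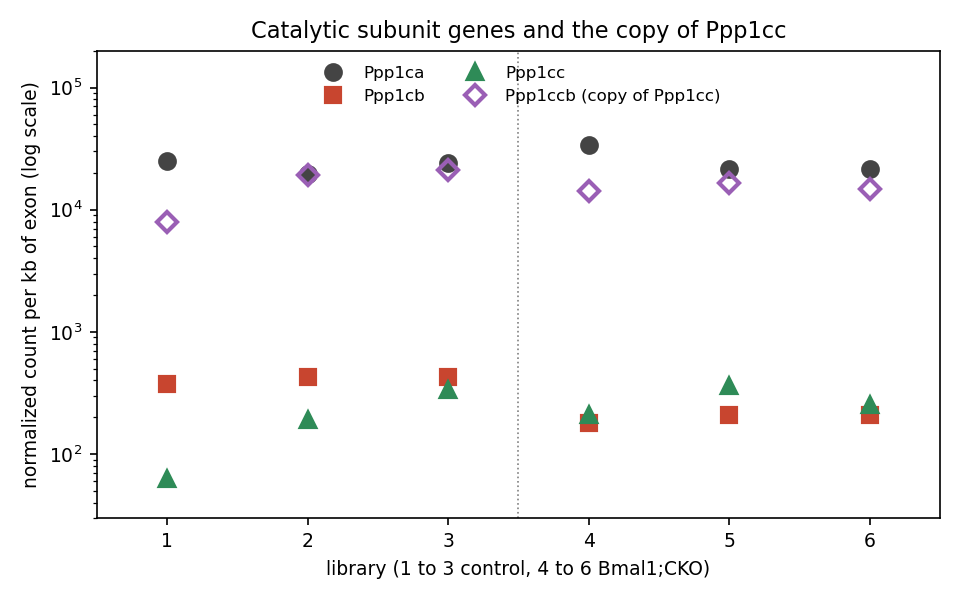
Normalized count per kb of exon (log scale) of the 3 catalytic genes and of Ppp1ccb in each library, with the control libraries left of the dotted line and the Bmal1;CKO libraries right of it. Ppp1ca and Ppp1ccb lie far above Ppp1cb and Ppp1cc, and Ppp1cb lies above Ppp1cc in each of the 3 control libraries and below it in each of the 3 Bmal1;CKO libraries. This switch depends on the length used, and the level of Ppp1cc is uncertain. Per longest transcript Ppp1cb is also above Ppp1cc in libraries 4 and 6, and with reads not divided by length in every library.

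The balance of the catalytic genes within a library does not depend on how libraries are scaled. Per kb of exon, Ppp1cb made up 1.47%, 2.11% and 1.71% of the catalytic sum in control and 0.526%, 0.931% and 0.962% in Bmal1;CKO. These shares did not overlap and differed by -0.956 percentage points between the means. Ppp1ca held 96.9% to 98.9% of the sum in every library. With Ppp1ccb counted as Ppp1cc, an alternative added after the data were seen, the Ppp1cb share was 0.925% to 1.12% in control and 0.371% to 0.576% in Bmal1;CKO, and that of Ppp1cc with its copy 23.9% to 49.1%. The rank of Ppp1cb below Ppp1ca held in both cases, while the place of Ppp1cc turned on its copy.

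Ppp1r12a (chr10:108162193-108284475, forward strand) encodes MYPT1, the subunit that brings PP1 beta to myosin. The libraries held 3144, 2904 and 1655 normalized counts of it in control and 1657, 2566 and 1701 in Bmal1;CKO. Control library 3 lay at the level of libraries 4 and 6, so the groups overlapped. Between the groups its log2 fold change was -0.35 (SE 0.36, 95% interval -1.18 to 0.47). Ppp1cb and Ppp1r12a encode partners in 1 enzyme, so their ratio was followed in each library. Ppp1cb over Ppp1r12a, in normalized counts, was 1.30, 1.62 and 2.81 in control and 1.18, 0.881 and 1.35 in Bmal1;CKO. The ratios overlapped, since library 6 lay above control library 1.

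Ppp1r12b (chr1:134754658-134955942, reverse strand) encodes MYPT2, a targeting subunit best known from muscle. Among the members its values were the most uneven with those of Ppp1cc, at 1127, 216 and 671 in control and 325, 993 and 262 in Bmal1;CKO. High and low libraries occurred in both groups. For Ppp1r12b the log2 fold change was -0.32 (SE 0.78, 95% interval -2.13 to 1.50), and it was 0.20 without control library 1 and 0.055 without library 6. At this spread no difference in Ppp1r12b could be resolved.

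Ppp1r2 (chr16:31251537-31275277, reverse strand) encodes inhibitor-2, a small protein that blocks the catalytic site. Ppp1r2 was measured at 2920, 2825 and 3047 normalized counts in control and 2662, 2149 and 2269 in Bmal1;CKO. All 3 Bmal1;CKO libraries lay below the control libraries, by a narrow gap between libraries 2 and 4. Its log2 fold change was -0.32 (SE 0.25, 95% interval -0.89 to 0.26). The processed copies Ppp1r2-ps2 and Ppp1r2-ps4, which match about 15.2% of the Ppp1r2 transcript at 96.5% and 97.0% identity, had 262 to 544 and 308 to 479 normalized counts, and the other annotated copies had less. Reads of Ppp1r2 in those stretches may be split between the copies.

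Ppp1r7 (chr1:93342854-93373489, forward strand) encodes SDS22, a leucine-rich repeat protein that binds newly made and stored PP1. In control Ppp1r7 had 5388, 4245 and 3991 normalized counts, and in Bmal1;CKO 4608, 3426 and 3699. The groups overlapped through library 4. The log2 fold change of Ppp1r7 was -0.21 (SE 0.26, 95% interval -0.81 to 0.38). Its exons share 225 bases with Pask on the opposite strand, which had 3.71 to 788 normalized counts.

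Ppp1r8 (chr4:132826929-132843169, reverse strand) encodes NIPP1, a nuclear PP1 subunit tied to splicing and chromatin. Its normalized counts were 2560, 3303 and 3197 in control and 3194, 3007 and 2633 in Bmal1;CKO. The 2 groups covered nearly the same range. The log2 fold change of Ppp1r8 was -0.03 (SE 0.25, 95% interval -0.62 to 0.55), and it took either sign, between -0.15 and 0.046, when 1 library was left out.

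**Figure D2:**
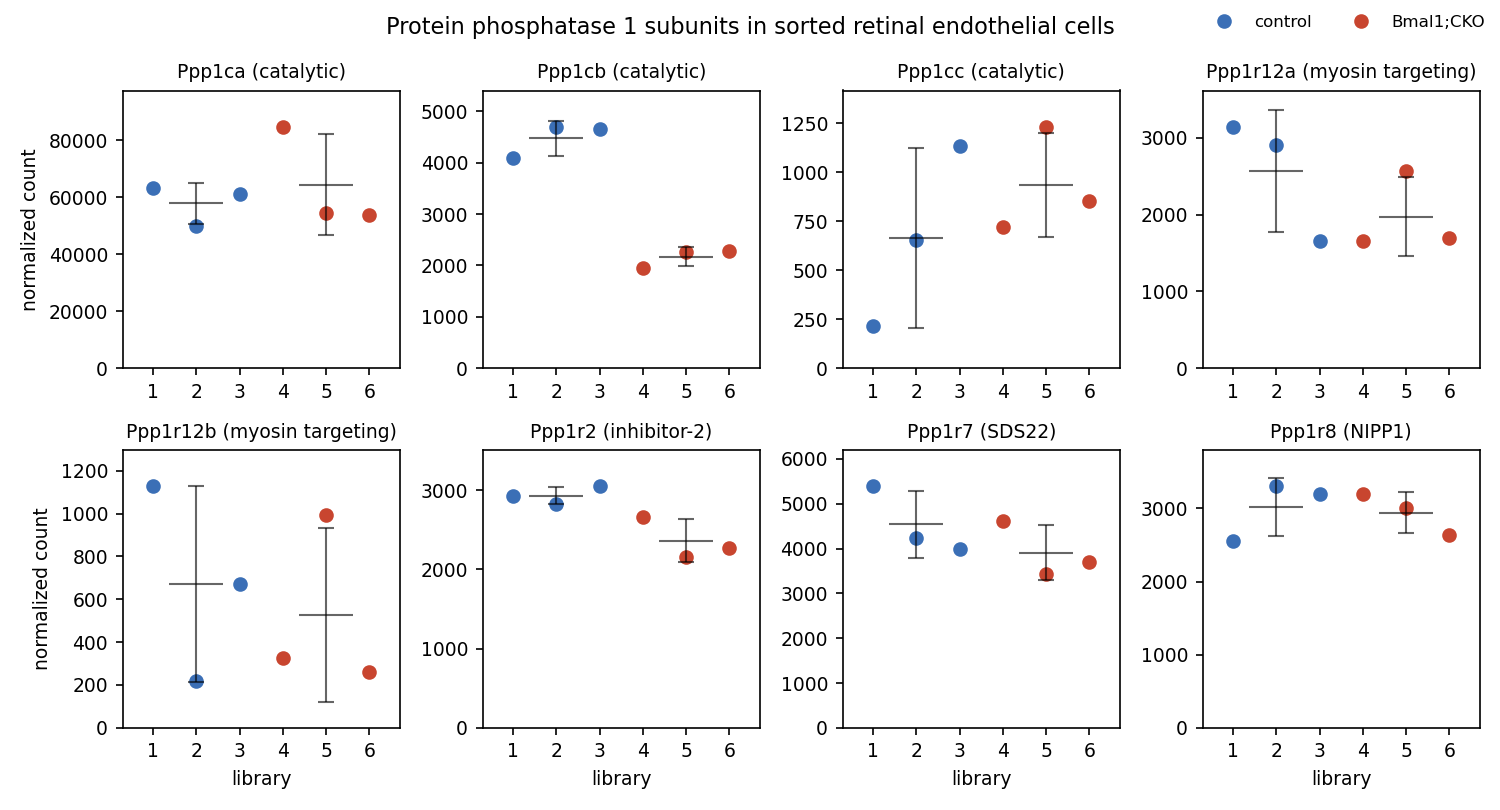
Normalized counts of the 8 genes in each library, control in blue and Bmal1;CKO in red, with black marks for the mean and SD of each group (n = 3) and axes that start at 0. Ppp1cb is clearly split by genotype, Ppp1r2 is split by a narrow gap, and the groups overlap for the other 6 genes.

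Over the 8 members, 6 had a negative and 2 a positive log2 fold change, with a median of -0.27 beside 0.11 over all tested genes. By limma-trend 0 of 8 were called at an FDR of 0.05, where 0% of all tested genes were called; 1 member, Ppp1cb, had an unadjusted p under 0.05, beside 1.75% of all tested genes in the lower direction. DESeq2 called 1 of 8, Ppp1cb, in both settings, beside 0.122% of all tested genes called lower without shrinkage and 0.0978% with the prior. The edgeR and limma-voom fits called 0 of 8 and also 0% of all tested genes. The groups did not overlap, with Bmal1;CKO lower, for Ppp1cb and Ppp1r2, beside 4.54% of all tested genes, and both were also apart under TMM scaling in place of the size factors, added after the data were seen. Of the ratios of Ppp1cb to the other 7 members, 5 did not overlap between the groups, and those to Ppp1r12a and Ppp1r12b did. Ppp1cb was itself split between the groups, so these ratios restate its difference and add no support. How many of all tested genes would give such a ratio was not computed. Ppp1cb over Ppp1r8, for example, was 1.59, 1.42 and 1.45 in control and 0.612, 0.752 and 0.870 in Bmal1;CKO. These ratios use counts not divided by length. Per kb of exon, Ppp1r8 was the higher in both groups, at 1033 against 410 in control and 1007 against 199 in Bmal1;CKO.

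**Figure D3:**
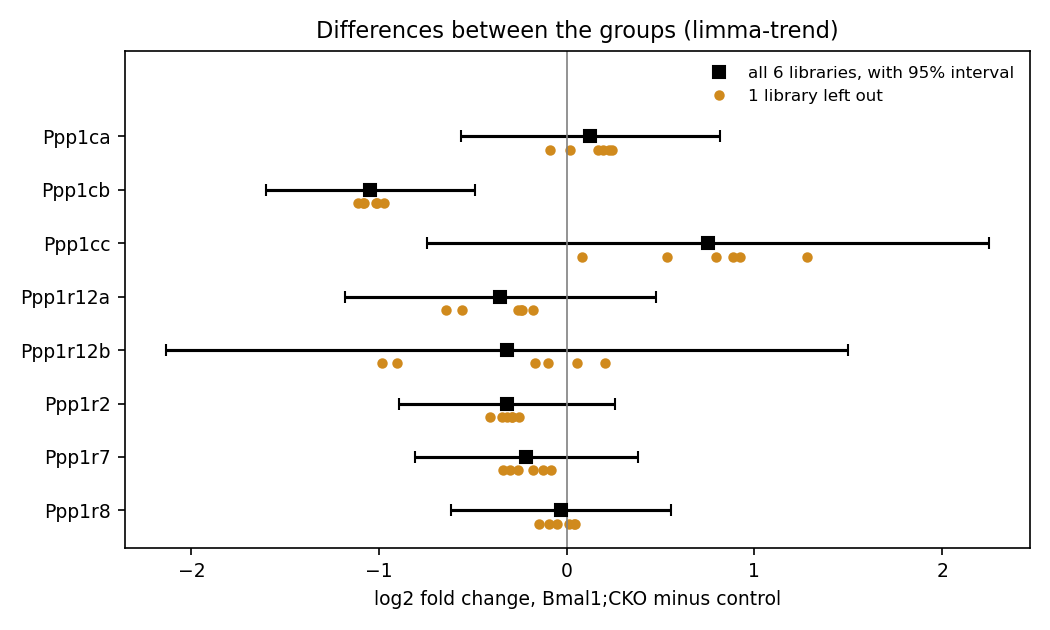
Log2 fold change of each gene, Bmal1;CKO minus control, by limma-trend with its 95% interval (black squares and bars) and with each library left out in turn (orange points). The Ppp1cb interval lies below 0 and its points stay between -1.11 and -0.97, while the intervals of the other 7 genes include 0.

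Levels were compared between genes per kb of exon. In control, Ppp1ca had 23017 ± 2850 normalized counts per kb (SD, n = 3), Ppp1r8 1033 ± 137, Ppp1r2 660 ± 25.1, Ppp1r7 433 ± 70.9 and Ppp1cb 410 ± 31.4. Ppp1r12a followed with 320 ± 99.7, Ppp1cc with 195 ± 134 and Ppp1r12b with 44.8 ± 30.4. The 3 highest genes were each separate from the next, and from Ppp1r7 down each gene overlapped the one after it. In Bmal1;CKO the 4 highest genes kept their order, and Ppp1cb, at 199 ± 17.0 per kb, stood below Ppp1cc (273 ± 77.7) and Ppp1r12a (246 ± 63.9), overlapping Ppp1r12a, and above Ppp1r12b (35.2 ± 27.0) with no overlap. On these lengths Ppp1cb ranked 5 of 8 in control and 7 of 8 in Bmal1;CKO, and the second rank also rests on the uncertain level of Ppp1cc. The longest annotated Ppp1cb transcript has 5962 bases, and ranks on that length were not taken. These levels rest on all annotated exon bases, 10913 for Ppp1cb and 2520 for Ppp1ca, and a gene whose long annotated ends are little used comes out low.

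The makeup of the sorted cells was viewed through marker genes. All 12 endothelial markers had at least 10 reads in every library. Their summed normalized count was 193601 to 405055 in control and 119060 to 248163 in Bmal1;CKO, and 12 of 12 had lower means on the log2 scale in Bmal1;CKO (median difference -0.54; -0.93 without library 6 and -0.20 without library 5), with overlapping groups for each. Ppp1cb per 1000 counts of that sum was 10.1 to 24.0 in control and 9.06 to 19.0 in Bmal1;CKO, so on this scale the groups overlapped. All 9 microglial markers were also present, at summed counts of 1386183 to 4103347 in control and 2013410 to 3985845 in Bmal1;CKO. In every library this sum was far above the endothelial sum. The levels of the members therefore describe the sorted RNA as a whole and were not assigned to a cell type. The microglial markers were higher in 8 of 9 on the log2 scale (median difference 0.40; 0.068 without control library 2 and 0.74 without control library 1), with overlapping groups for each. Ppp1cb per 1000 counts of the microglial sum was 0.995 to 3.39 in control and 0.490 to 1.14 in Bmal1;CKO, which also overlapped. The 8 rod markers summed to 380698 to 435149 in control and 255328 to 483589 in Bmal1;CKO, and Ppp1cb per 1000 counts of that sum, 10.7 to 11.3 and 4.67 to 7.66, did not overlap. The rod sum was above the endothelial sum in each library except library 1. The rod markers were lower in 7 of 8 on the log2 scale (median difference -0.26; -0.49 without library 5 and 0.095 without library 4). The groups did not overlap for 1 of the 8, beside 11.2% of all tested genes. The 9 mural markers, 2 of which had 10 reads in control library 1, summed to 2369 to 48979 in control and 4355 to 8969 in Bmal1;CKO, and their median log2 fold change was 1.33 by limma-trend but -1.27 by edgeR. The part of cell makeup in the difference of Ppp1cb was not tested, and in bulk RNA fewer cells of a type and less RNA per cell cannot be told apart.

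The other genes with a Ppp1r symbol give the wider set of PP1 regulators. Of 44 in the table, pseudogenes of Ppp1r2 included, 36 were tested, 18 with a positive and 18 with a negative log2 fold change, and 0 were called by limma-trend, edgeR or DESeq2. At an unadjusted p under 0.05 by limma-trend there was 1, beside 4.92% of all tested genes. The median was 0.05 by limma-trend and -0.15 by edgeR, so the list had no direction that held across models. In 4 of the 36 the groups did not overlap, beside 11.2% of all tested genes. Ppp1r15a, which encodes the stress-induced GADD34 that directs PP1 to the translation factor eIF2 alpha, was the 1 of these that was higher in Bmal1;CKO. Its normalized counts were 24415, 12207 and 13163 in control and 32284, 46783 and 26493 in Bmal1;CKO, with a log2 fold change of 1.12 (SE 0.36; adjusted p = 0.883 by limma-trend). Library 6 was only just above control library 1. The lower 3 were Ppp1r42 (log2 fold change -1.13, SE 0.71), Ppp1r14a (-0.82, SE 0.56, but -0.44 without library 6) and Ppp1r21 (-0.20, SE 0.29). Ppp1r14a encodes CPI-17, an inhibitor of myosin phosphatase known from smooth muscle, and had 415 ± 39.6 normalized counts in control and 249 ± 97.5 in Bmal1;CKO (SD, n = 3).

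**Figure D4:**
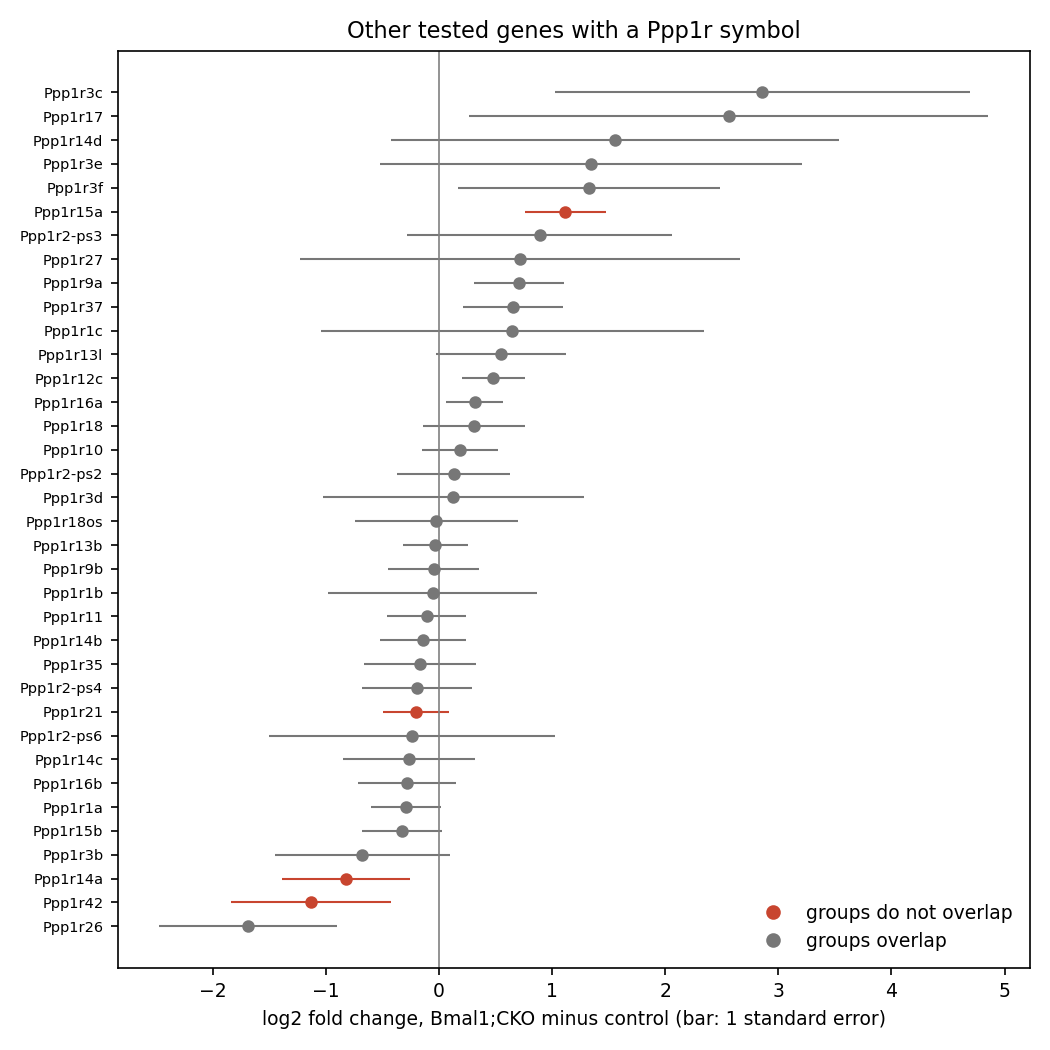
Log2 fold change of the 36 tested genes with another Ppp1r symbol, Bmal1;CKO minus control, by limma-trend with 1 standard error either way. The 4 genes in red, Ppp1r15a on the positive side and Ppp1r21, Ppp1r14a and Ppp1r42 on the negative side, are those whose groups do not overlap.

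Of 15 PP1 partners with other names, 14 were tested, 8 with a positive and 6 with a negative log2 fold change, and 0 were called by limma-trend, edgeR or DESeq2, with 3 at an unadjusted p under 0.05 by limma-trend, beside 4.92% of all tested genes. The groups did not overlap for 5, beside 11.2% of all tested genes. The median log2 fold change was 0.10, and it was -0.16 without control library 2. Shoc2, the scaffold of a PP1 complex that acts on RAF kinases, had 1888 ± 648 normalized counts in control and 871 ± 298 in Bmal1;CKO (log2 fold change -1.12, SE 0.40), and Uri1, a prefoldin-like partner of PP1 gamma, 4185 ± 784 and 2528 ± 663 (-0.75, SE 0.31; SD, n = 3 each). Phactr1, which binds PP1 and actin, had 4108 ± 359 and 5879 ± 310 (0.52, SE 0.22), and Rrp1b, a nucleolar partner, 1693 ± 169 and 2211 ± 150 (0.39, SE 0.26; SD, n = 3 each). The largest of these differences rested on 1 library. Tprn had 48.0 normalized counts in control library 1 against 1436 to 3136 in the other 5, and its log2 fold change of 2.37 (SE 1.31) was 0.63 without that library.

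The 13 genes of the myosin light chain pathway, on which PP1 beta and MYPT1 act, had a median log2 fold change of -0.14 by limma-trend, -0.46 by edgeR and -0.34 by limma-trend without library 6. With all libraries 5 were positive and 8 negative, and 0 were called by limma-trend, edgeR or DESeq2, with 0 at an unadjusted p under 0.05 by limma-trend, beside 4.92% of all tested genes. In 1 of the 13, Rhoa, the GTPase that activates the ROCK kinases, the groups did not overlap, beside 11.2% of all tested genes. Rhoa stood at 9730 ± 2172 and 7035 ± 627 normalized counts (SD, n = 3; log2 fold change -0.45, SE 0.25), and its log2 fold change was -0.28 without control library 1. Among 9 tested catalytic subunits of the other phosphatases of the same superfamily, 3 were positive and 6 negative. Their median was -0.21, and it was -0.30 without control library 1 and -0.063 without library 4. The same 3 tools called 0 of the 9. At an unadjusted p under 0.05 by limma-trend there were 0, beside 4.92% of all tested genes. The groups did not overlap for 1 of the 9, beside 11.2% of all tested genes. It was Ppp6c, the catalytic subunit of PP6, with 3858 ± 356 and 2708 ± 515 normalized counts (SD, n = 3; log2 fold change -0.52, SE 0.26).

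The genes whose pattern over the 6 libraries was most like that of Ppp1cb were picked by Pearson's r on log2(normalized count + 1) among 15609 genes with a mean of at least 100. They were Lancl2 (r = 0.996), Prxl2c (0.992), Cyb5r4 (0.991), Rap1b (0.988) and Atp2c1 (0.983). Being picked for the likeness, they share its split by genotype. Lancl2 had 1524, 1853 and 1857 normalized counts in control and 705, 737 and 782 in Bmal1;CKO. Rap1b, which encodes a small GTPase of cell adhesion, had 17831, 18322 and 18661 in control and 10546, 11565 and 10586 in Bmal1;CKO.

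BMAL1 with its partner CLOCK binds the E-box CACGTG, which reads the same on both strands. RefSeq promoter windows on GRCm38 of 300 bases, 250 before and 50 after the start, were given for 7 of the 8 members, all but Ppp1ca. The E-box was found in 0 of their 9 windows, beside 7.15% of all 32851 windows, which says only that these letters are not in these windows.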

How the data were processed

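RNA-seq of 3 control and 3 Bmal1;CKO libraries was analysed. FastQC, Trimmomatic, Bowtie (genome mm10, GRCm38) and featureCounts took the authors from reads to gene counts. The deposited values are a signal: these counts after division by a library's DESeq2 size factor. Dividing each column by the value of 1 read returned whole reads for 100% of values, with size factors of 0.711 to 1.40. The tolerance of this check grew with the count. Values of 0 and very high counts, such as those of Ppp1ca, therefore passed in any case, and the check bears only on counts between. The deposited fold changes, p-values and adjusted p-values were not used. The groups were compared with limma-trend (limma 3.58.1 in R 4.3.3) on log2(normalized count + 1), which understates changes of low genes, over 20459 genes (10 or more reads in 3 or more libraries), adjusted by Benjamini-Hochberg and called at an FDR of 0.05. Alternatives were edgeR 4.0.16 (quasi-likelihood), limma-voom and DESeq2 1.42.0 on the recovered reads, other filters, pseudocounts of 0.5 and 10, and each library left out. The fits were also run on simulated counts, but only with changes larger than that of Ppp1cb. This run therefore cannot tell which fit to trust for Ppp1cb.

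The members and lists were chosen with earlier results of these data known. Genes named beyond the 8 members were the annotated copies of a member, Arntl, the 5 genes most like Ppp1cb, and in each list up to 6 genes with a mean of at least 100 normalized counts and groups that did not overlap. Positions and coding sequences came from GENCODE M21, with starts counted from 1, and copies were found with BLAST 2.17.0 at 90% identity or more over at least 300 bases.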

Additional observations from a re-analysis of the deposited data

How the results depend on the processing

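No paired analysis was possible because the table's columns are numbered 1 to 6 and do not carry the replicate numbers of the labels. The log2 fold change of Ppp1cb was -1.05 by DESeq2 without shrinkage and -0.94 with the prior, both past the FDR of 0.05, so DESeq2 called 1 of the 8 members in either setting where limma-trend called 0, and its adjusted p ran from 0.0228 to 1.00 over the alternatives. With 1 library left out it lay between -1.11 and -0.97, with adjusted p of 0.224 to 0.996 by limma-trend. Left-out libraries turned the sign of Ppp1ca (-0.090 without library 4; range -0.090 to 0.24), Ppp1r12b (0.20 without library 1, 0.055 without library 6; range -0.98 to 0.20) and Ppp1r8 (0.037, 0.013 and 0.046 without libraries 2, 3 and 6; range -0.15 to 0.046). The number of the other 7 members that were lower, 5 with all libraries and under the 9 other alternatives, was 3 without library 6 and ran from 3 to 6. Leave-one-out ranges were 0.083 to 1.28 for Ppp1cc, -0.64 to -0.18 for Ppp1r12a, -0.41 to -0.25 for Ppp1r2 and -0.34 to -0.085 for Ppp1r7. The log2 fold change of Ppp1cc, 0.75 by limma-trend, was smaller in the other models. It was 0.66 by limma-voom, 0.48 by edgeR with TMM scaling, 0.49 by DESeq2 without shrinkage and 0.30 with the prior. The cause of these shifts was not tested. The Ppp1cb share differed by -1.10 to -0.780 percentage points with 1 library left out, by -1.02 per longest transcript, by -3.80 with reads not divided by length and by -0.550 with Ppp1ccb counted. The median of all tested genes was 0.11 by limma-trend and -0.03 by edgeR with TMM scaling. The lowest value of a member was 174 reads, of Ppp1cc in library 1.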
